A study of Mus musculus with 8 samples.

Results

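The CC chemokines are the branch of the chemokine family whose first cysteines stand side by side. Members were chosen by name: the 10 mouse genes Ccl2, Ccl3, Ccl4, Ccl5, Ccl6, Ccl7, Ccl9, Ccl11, Ccl20 and Ccl27a were looked up by symbol among the 13437 genes of the deposited table, and 9 of the 10 were found. Ccl20 was not analysed here. RNA sequencing was done on corneas of female C57BL/6 mice aged 6 to 8 weeks, randomly placed in a dry eye group or a control group, with no genetic change named for either. Dry eye mice had 5 µl of 0.2% BAC (in this field, the preservative benzalkonium chloride) dropped onto each eye 2 times daily over 7 days, and control mice had PBS on both eyes. There were 4 corneal samples per group, called BAC 1 to 4 and PBS 1 to 4. The labels do not give the number of animals or eyes in a sample, so p-values measure the spread between these samples, which may be technical.

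CC chemokines are small secreted proteins that bind heparan sulfate on cells and matrix and signal through G protein-coupled receptors on leukocytes. The gradient they form draws monocytes, T cells, dendritic cells or eosinophils, depending on which receptors a cell carries. In an inflamed cornea, epithelial cells, stromal keratocytes, resident macrophages and arriving leukocytes can all be sources, and atypical receptors bind chemokines without the usual signal and so limit or reshape the gradient.

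Levels are FPKM, fragments scaled by gene length and by all fragments of a library. Gene values matched a length taken over all annotated exons of a gene. For some genes this is longer than the transcript listed for the gene (Ccl5, 960 against 532 bases). Levels and shares of different genes are therefore compared only roughly. The FPKM of a library summed to between 268629 and 283538, and depth in reads is not known. Within a group, Pearson's r between libraries over genes was 0.977 to 0.986, a description, since genes are not independent replicates. Krt12, the keratin that defines corneal epithelium, stood at 10033 to 10586 FPKM with PBS and at 8.50 to 15.0 FPKM with BAC, so the defining marker of the labelled tissue was nearly absent from the BAC libraries. A gene was tested with limma on log2(FPKM + 1) where its mean over the 8 libraries was at least 0.5 FPKM, with Benjamini-Hochberg adjustment over all 12967 such genes and a threshold of 0.05. A fold is a ratio of mean FPKM between groups. A log2 change is a difference of log2(FPKM + 1) and so understates changes of low genes. The median log2 change of all genes tested was 0.19. In bulk tissue, fewer cells of a type and less RNA per cell cannot be told apart.

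Ccl6 and Ccl9, neighbouring CCR1 ligands known in rodents, were the most abundant of the named members in the BAC libraries. Among the members that rose, they kept the steadiest ratio to each other, so their promoter windows are shown. Each runs from 250 bases before to 50 bases after the RefSeq start site (GRCm38.p6, minus strand, chr11:83593038-83593337 for Ccl6 and chr11:83578587-83578886 for Ccl9), and capitals mark the stretch that aligned best between them.
Ccl6: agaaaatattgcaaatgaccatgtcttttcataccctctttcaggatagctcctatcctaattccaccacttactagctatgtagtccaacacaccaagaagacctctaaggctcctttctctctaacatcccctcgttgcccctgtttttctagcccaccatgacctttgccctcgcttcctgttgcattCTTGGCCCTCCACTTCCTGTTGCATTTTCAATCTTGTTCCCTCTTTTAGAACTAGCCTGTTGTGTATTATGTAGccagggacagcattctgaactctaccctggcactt
Ccl9: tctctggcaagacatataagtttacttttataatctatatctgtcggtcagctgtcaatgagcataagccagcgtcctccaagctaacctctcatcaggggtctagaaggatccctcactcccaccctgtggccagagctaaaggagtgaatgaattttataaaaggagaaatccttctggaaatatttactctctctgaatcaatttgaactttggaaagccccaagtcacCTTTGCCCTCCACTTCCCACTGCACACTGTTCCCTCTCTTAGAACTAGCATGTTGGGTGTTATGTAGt
The aligned stretch had 74 columns, of which 59 (79.7%) were identical and 7 were gaps, and its longest shared run was GCCCTCCACTTCC. It lay around the start of both genes, from 59 bases before the start site to 15 transcribed bases in Ccl6, and from 18 bases before it to 49 transcribed bases in Ccl9. The best alignments of the Ccl3 window spanned 12 columns with Ccl6 and 11 with Ccl9. The RefSeq table held windows for 5 of the 10 members, namely Ccl3, Ccl6, Ccl9, Ccl20 and Ccl27a.

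Motifs of factors that act at inflammatory genes were searched as letters on both strands. The NF-kappa B consensus was found in 5.8% of the 32851 promoter windows in the table, and the Ccl9 window held it on the reverse strand as GGAAAGCCCC, 35 bases before the start site. The AP-1 letters TGANTCA, found in 7.81% of windows, matched Ccl9 as TGAATCA, 53 bases before the start site, and did not overlap the NF-kappa B match. The ETS letters CNGGAAGT, found in 9.53% of windows, matched Ccl6 on the reverse strand as ACTTCCTG, 48 bases before the start site and inside the aligned stretch. The C/EBP letters TTGCNNAA, found in 10.8% of windows, matched neither Ccl6 nor Ccl9. The NF-kappa B consensus was widened after matches had been seen, and the Ccl9 match was present before and after. A match describes letters in a window and is not evidence of binding.

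Of the 9 CC chemokines measured, 8 were higher with BAC and 1, Ccl27a, did not pass the test. For all genes tested, 45.1% were higher, 22.6% were lower and 67.6% changed in either direction. In 7 of the 8, the PBS mean was under 0.5 FPKM, so they passed the filter only through the BAC group and had to differ. Among all genes with a PBS mean under 0.5 FPKM, 94.6% were called higher, so the count itself says nothing particular about CC chemokines. In the same 8 genes no BAC library overlapped any PBS library, which held for 42.6% of all genes in that direction.

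**Figure D1:**
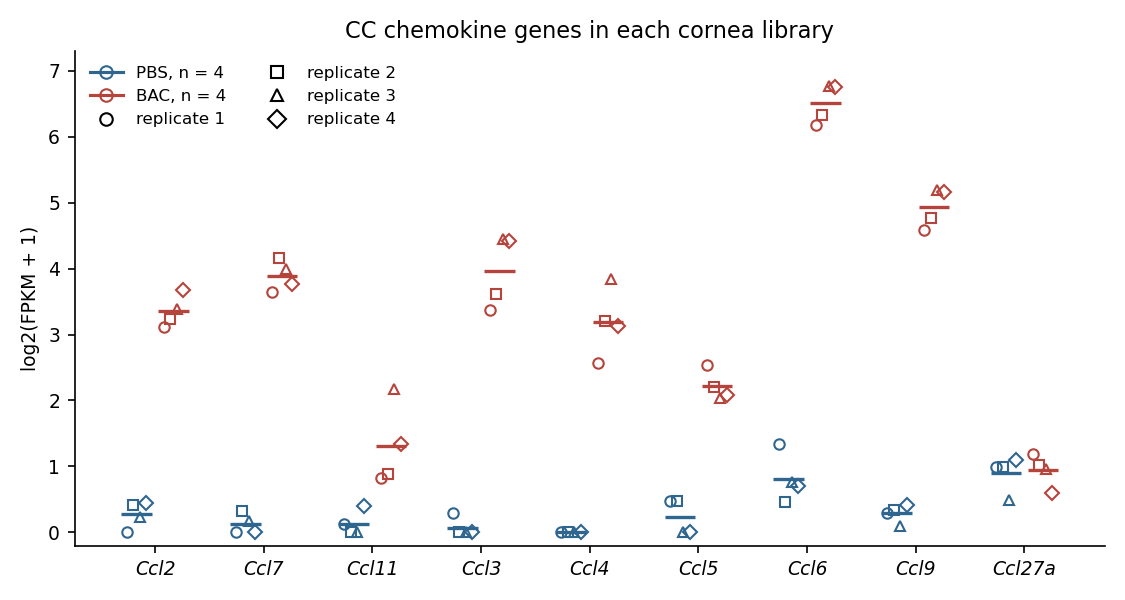
FPKM of the 9 CC chemokines in each of the 4 BAC and 4 PBS libraries, on the log2(FPKM + 1) scale named on the axis, with 1 point per library, its shape giving the replicate number, and a bar at the group mean. The groups lie apart for 8 genes and overlap for Ccl27a.

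Ccl2 and Ccl7 encode the monocyte chemoattractants that act through CCR2, the receptor that brings monocytes out of bone marrow and into tissue, and Ccl7 also binds CCR1 and CCR3. Both stand in a row on chromosome 11 with Ccl11. Ccl2 (ENSMUSG00000035385.5, GRCm38 chr11:82035571-82037453, plus strand, 3 exons) was at 7.65, 8.40, 9.48 and 11.8 FPKM in BAC 1 to 4. In PBS 1 to 4 it was listed at 0, 0.341, 0.172 and 0.362 FPKM. BAC 4 was the highest library and every BAC library was far above every PBS library. The log2 change was 3.08 (SE 0.14, n = 4 per group, limma adjusted p = 1.58e-07).

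Ccl7 (ENSMUSG00000035373.2, chr11:82045712-82047525, plus strand, 3 exons) was at 11.5, 16.9, 14.9 and 12.6 FPKM with BAC. With PBS it was listed at 0, 0.254, 0.123 and 0 FPKM. BAC 2 was the highest, so the libraries that were high for Ccl2 and for Ccl7 were not the same. The log2 change of Ccl7 was 3.77 (SE 0.13, limma adjusted p = 2.93e-08), and among the 8 genes that rose it varied least over the BAC libraries, with a coefficient of variation of 17.1%.

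Ccl11 encodes eotaxin, the ligand of CCR3 that attracts eosinophils, made by fibroblasts among other cells. Ccl11 (ENSMUSG00000020676.2, chr11:82057823-82062955, plus strand, 3 exons) was at 0.776, 0.842, 3.54 and 1.54 FPKM with BAC. With PBS it was listed at 0.0905, 0, 0 and 0.326 FPKM. BAC 3 stood well above the other BAC libraries, and BAC 1 and BAC 2 lay closest to the PBS range. The log2 change was 1.18 (SE 0.28, limma adjusted p = 0.00413), the smallest of the 8 genes that rose. Without BAC 3 it was 0.89, and under quantile normalization it was 0.77 with a limma adjusted p of 0.0435.

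Beside these genes, the markers of the cells they are known to attract were counted. Of the 12 monocyte and macrophage markers, 12 rose, 4 of which passed the filter only through BAC. Called higher were 45.1% of all genes and 94.6% of genes with a PBS mean under 0.5 FPKM. The 12 markers summed to 798 to 1038 FPKM with BAC against 28.3 to 41.9 FPKM with PBS. Among them Csf1r, the receptor for macrophage growth factor, changed by 3.52 on the log2 scale, Lyz2, a lysozyme of myeloid cells, by 5.61, and Adgre1, which encodes F4/80, by 3.46. Of the 5 eosinophil markers (Siglecf, Epx, Prg2, Ccr3 and Il5ra), 0 were in the table, so no eosinophil level can be set beside Ccl11. The part of these cells in the changes of the chemokines was not tested.

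Ccl3, Ccl4 and Ccl5 encode inflammatory chemokines made by activated macrophages, neutrophils and T cells. Ccl3, the macrophage inflammatory protein that also binds CCR1, lies on the minus strand (ENSMUSG00000000982.5, chr11:83647844-83649355, 3 exons). It was at 9.29, 11.2, 20.7 and 20.3 FPKM with BAC and was listed at 0.223, 0, 0 and 0 FPKM with PBS. BAC 3 and BAC 4 stood apart from BAC 1 and BAC 2, and only PBS 1 had a value above 0. The log2 change was 3.88 (SE 0.24, limma adjusted p = 7.85e-07).

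Ccl4 (ENSMUSG00000018930.3, chr11:83662584-83664683, plus strand, 3 exons) was at 4.91, 8.24, 13.3 and 7.79 FPKM in the BAC libraries, while all 4 PBS libraries list it at 0, so no fold is given. BAC 3 was the highest and BAC 1 the lowest. The fitted log2 change was 3.19 (SE 0.22, limma adjusted p = 1.61e-06). Ccl3 and Ccl4 did not keep a fixed ratio: Ccl3 over Ccl4 was 1.89, 1.36, 1.56 and 2.61 in BAC 1 to 4.

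Ccl5 encodes RANTES, a ligand of CCR1 and CCR3 typical of T cells and NK cells. Ccl5 (ENSMUSG00000035042.2, chr11:83525778-83530518, minus strand, 3 exons) was at 4.81, 3.60, 3.10 and 3.23 FPKM with BAC and was listed at 0.386, 0.395, 0 and 0 FPKM with PBS. It was the only one of the 8 genes that rose for which BAC 1 was the highest library and BAC 3 the lowest. The log2 change was 1.98 (SE 0.16, limma adjusted p = 4.04e-06).

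Marker levels of other leukocytes were read in the same libraries. Of 10 markers of T and NK cells, 6 were in the table and 4 were tested. All 4 were higher, and all 4 passed the filter only through BAC, so they had to differ. The 6 summed to 0.0960 to 0.358 FPKM with PBS and to 8.27, 10.1, 7.01 and 6.67 FPKM in BAC 1 to 4, and Cd3d was listed at 0 in every PBS library. Among them Cd2, an adhesion receptor, changed by 1.61 and Cd3g, a chain of the T cell receptor complex, by 0.97 on the log2 scale. Of 11 neutrophil markers 6 were in the table and all 6 were higher, 5 of them kept by the filter only through BAC, as for genes low in PBS in general (94.6% higher). Their summed levels were 405, 394, 1224 and 607 FPKM in BAC 1 to 4 and 2.85 to 23.3 FPKM with PBS, where Mmp8 and Retnlg were listed at 0 throughout. BAC 3 was highest for the neutrophil sum, and also for Ccl3, Ccl4, Ccl6, Ccl9 and Ccl11. This was not particular to neutrophils. BAC 3 was also highest for the sums of monocyte and macrophage (1038 FPKM), vascular endothelium (132 FPKM) and fibroblast and keratocyte markers (2100 FPKM). The T and NK and dendritic sums were highest in BAC 2, mast cell and corneal epithelium sums in BAC 4, and the epidermal keratinocyte sum in BAC 1. The part of any of these cells in the chemokine levels was not tested.

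Ccl6 was the most abundant member with BAC, and its change was the largest of the members on the log2(FPKM + 1) scale. By the ratio of mean FPKM, Ccl6 came after Ccl9, and Ccl3 and Ccl7, whose PBS values were mostly or partly 0, were higher still. Ccl6 (ENSMUSG00000018927.3, chr11:83587882-83593087, minus strand, 4 exons) was at 71.6, 79.3, 107.5 and 106.9 FPKM in BAC 1 to 4 and at 1.52, 0.371, 0.708 and 0.627 FPKM in PBS 1 to 4. BAC 3 and BAC 4 were nearly equal and PBS 1 was the highest control. The group means were 91.3 ± 18.6 and 0.807 ± 0.499 FPKM (SD, n = 4), a 113-fold difference, with a log2 change of 5.69 (SE 0.20, limma adjusted p = 3.58e-08). By log2 change it ranked 13 of the 12967 genes tested.

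Ccl9 (ENSMUSG00000019122.8, chr11:83572919-83578636, minus strand, 4 exons) was at 23.1, 26.3, 35.5 and 34.8 FPKM with BAC and at 0.233, 0.265, 0.0722 and 0.335 FPKM with PBS. Its libraries fell in the same order as those of Ccl6, with BAC 1 lowest and BAC 3 highest. The means were 29.9 ± 6.19 and 0.226 ± 0.111 FPKM (SD, n = 4), a 132-fold difference, with a log2 change of 4.64 (SE 0.14, limma adjusted p = 2.04e-08) and a rank of 43. Ccl9 is a ligand that attracts dendritic cells and myeloid cells through CCR1 in the mouse.

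The ratio of Ccl6 to Ccl9 was 3.10, 3.01, 3.03 and 3.08 in BAC 1 to 4. It averaged 3.05 ± 0.0429 (SD, n = 4), a coefficient of variation of 1.40%, the smallest of the 28 pairs of the 8 genes that rose. The next pairs were Ccl2 with Ccl6 at 9.61% and Ccl2 with Ccl9 at 10.3%, and the widest was Ccl11 with Ccl5 at 88.6%. This pair was singled out after the values were seen, and its ratio is a description of 4 libraries.

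**Figure D2:**
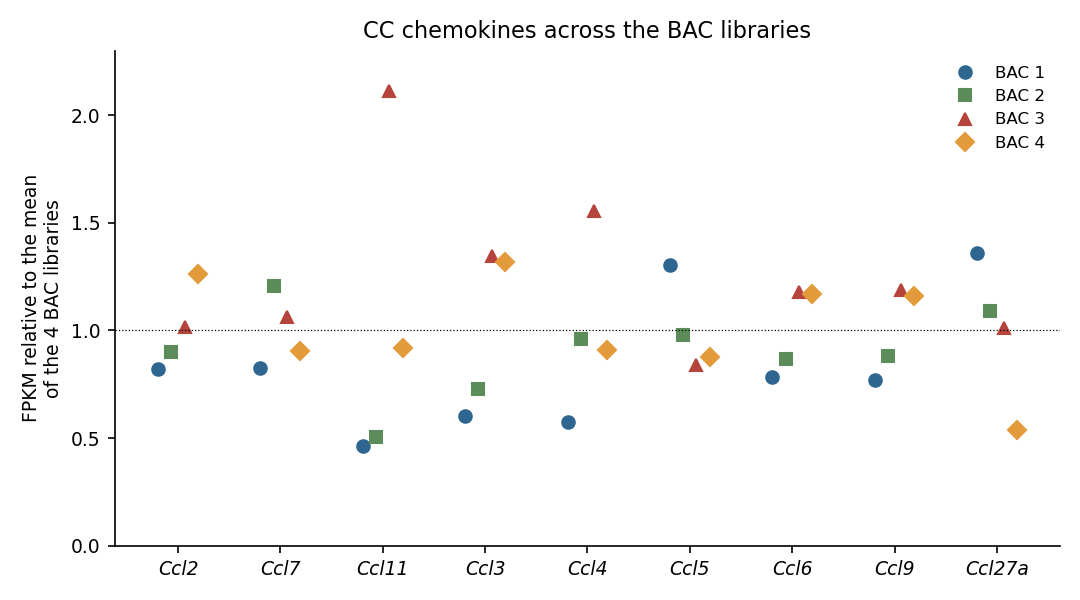
FPKM of each CC chemokine in each BAC library divided by the mean of the 4 BAC libraries, with 1 marker per library and a dotted line at 1. Ccl6 and Ccl9 carry the same pattern across libraries, while Ccl11 is highest in BAC 3 and Ccl5 highest in BAC 1.

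Ccl27a is the epithelial member, a ligand of CCR10 that is made by keratinocytes and attracts skin-homing T cells. Ccl27a (ENSMUSG00000073888.13, chr4:41769467-41774247, minus strand) was at 1.28, 1.03, 0.954 and 0.508 FPKM with BAC. With PBS it was at 0.994, 0.992, 0.413 and 1.14 FPKM. The groups overlapped, and the lowest library of all was PBS 3. The means were 0.943 ± 0.323 and 0.885 ± 0.322 FPKM (SD, n = 4), a 1.07-fold difference, with a log2 change of 0.05 (95% interval -0.32 to 0.42, limma adjusted p = 0.816). Under quantile normalization the change was -0.48 (limma adjusted p = 0.0253), so its direction depends on the scaling. Of the 682 windows of 50 bases in its listed transcript, 225 (33.0%) were shared with Ccl27b and Gm13306, so its level is uncertain. Much of the gene signal also lay outside that transcript, as given below.

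**Figure D3:**
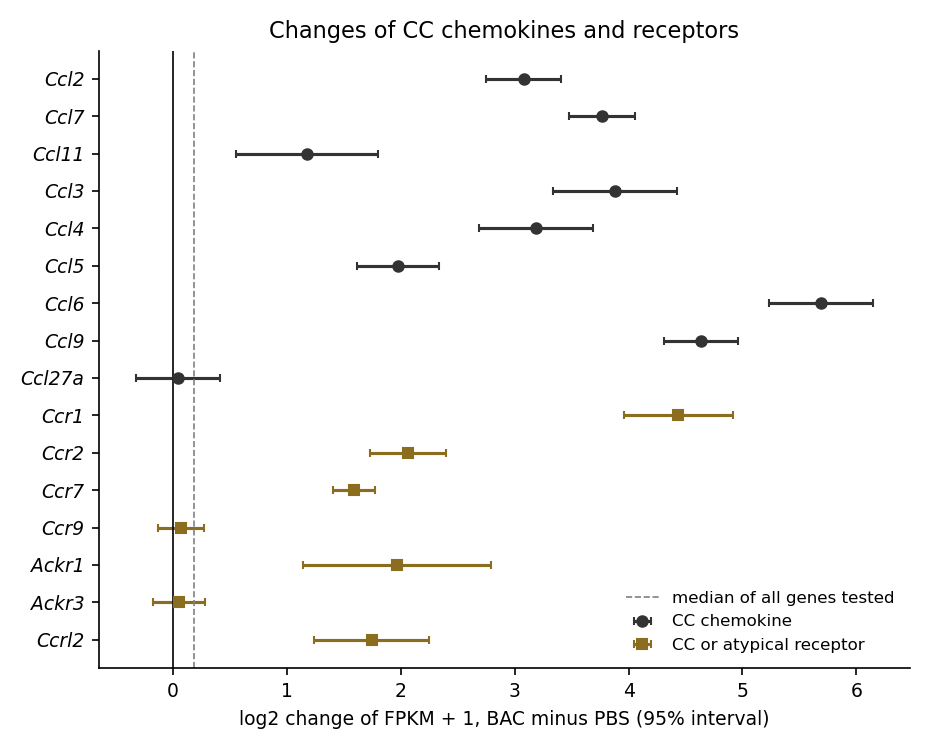
Log2 change with BAC relative to PBS for the 9 CC chemokines (circles) and 7 receptors (squares), on the log2(FPKM + 1) scale, with bars showing the 95% interval from limma, a line at 0 and a dashed line at the median of all genes, 0.19. The interval of Ccl27a, -0.32 to 0.42, includes 0.

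In the BAC libraries the order of mean levels was Ccl6, Ccl9, Ccl3, Ccl7, Ccl2, Ccl4, Ccl5, Ccl11 and Ccl27a. By gene FPKM, the ranges of Ccl6 and Ccl9, of Ccl9 and Ccl3, and of Ccl4 and Ccl5 did not overlap. All other neighbours overlapped. Of these, Ccl7 was above Ccl2 in 4 of 4 libraries, Ccl2 above Ccl4 and Ccl5 above Ccl11 in 3 of 4, and Ccl3 above Ccl7 and Ccl11 above Ccl27a in 2 of 4. The same order of means was found on the listed transcripts, but not the same overlaps. There, Ccl4-201 (4.91 to 13.3 FPKM with BAC) and Ccl5-201 (5.58 to 8.66 FPKM) overlapped. Ccl5-201 and Ccl11-201 (0.776 to 3.54 FPKM) did not, and in BAC 4 Ccl7-201 (12.6 FPKM) was below Ccl2-201 (15.0 FPKM).

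Summed over the 9 members, the level was 134.9, 155.8, 209.0 and 199.5 FPKM in BAC 1 to 4 and 3.45, 2.62, 1.49 and 2.79 FPKM in PBS 1 to 4. The means were 174.8 ± 35.3 and 2.59 ± 0.815 FPKM (SD, n = 4), a 67.6-fold ratio. Under quantile normalization the means were 167 and 4.67 FPKM and the ratio was 35.9-fold. The makeup differed: with BAC, Ccl6 gave 52.3% ± 1.29 and Ccl9 17.1% ± 0.231 of the sum, followed by Ccl3 at 8.54% ± 1.74, Ccl7 at 8.20% ± 1.97, Ccl2 at 5.38% ± 0.596 and Ccl4 at 4.80% ± 1.27. Ccl5 gave 2.24% ± 0.952 and Ccl11 0.895% ± 0.541. With PBS, Ccl27a gave 27.8% to 40.8% and Ccl6 14.2% to 47.6%.

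**Figure D4:**
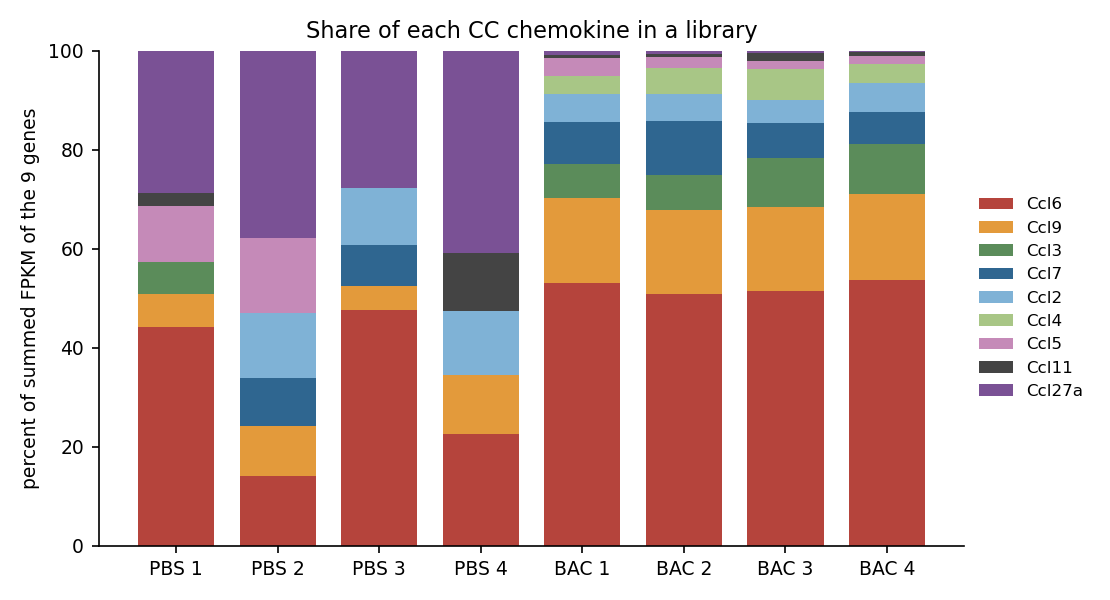
Stacked bars give the share of each CC chemokine in the summed FPKM of the 9 members, in percent, for each of the 4 BAC and 4 PBS libraries. In every BAC library Ccl6 makes up the largest share, between 50.9% and 53.6%.

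Each member had 1 listed transcript, tested in the same way. Of the 9 transcripts, 8 rose, where 23.0% of all transcripts tested rose and 34.6% changed in either direction. Of the 8, all but Ccl6-201 had a PBS mean under 0.5 FPKM, passed the filter only through BAC and had to differ. The share for all transcripts low in PBS was not computed, so nothing is read from the count. For Ccl3, Ccl4, Ccl7 and Ccl11 the transcript levels are the gene levels and add no second result. Ccl6-201 was at 112 ± 22.7 FPKM with BAC and 0.511 ± 0.247 FPKM with PBS (SD, n = 4), with a log2 change of 6.22 (SE 0.18, limma adjusted p = 5.76e-07). Ccl5-201 was at 6.63 ± 1.41 FPKM with BAC, with a log2 change of 2.53 (SE 0.25, limma adjusted p = 0.000125). Ccl11-201 changed by 1.18 (SE 0.31, limma adjusted p = 0.0195). Leaving out PBS 2 gave Ccl11-201 a limma adjusted p of 0.0516 and leaving out PBS 3 one of 0.0511. The limma adjusted p was also near the threshold without BAC 4 (0.0468), with the replicate block (0.0455) and under quantile normalization (0.0473). The smallest was 0.00820, with a pseudocount of 0.1. The call of Ccl11-201 is thus marginal under several alternatives. Ccl27a-204 had a log2 change of 0.09 and a limma adjusted p of 0.867.

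For Ccl6 the gene level and its listed transcript level were not proportional across the groups. The share of the Ccl6 gene signal (FPKM times length, with the gene taken over the union of its exons) that lay outside Ccl6-201 was 1.74%, 1.05%, 2.22% and 1.21% in BAC 1 to 4. It was 57.9%, 55.1%, 48.1% and 26.0% in PBS 1 to 4. All PBS libraries were above all BAC libraries, and the difference of -45.2 percentage points had p = 0.0286 by an exact permutation test, two-sided, the smallest value that 70 assignments allow. This quantity was chosen after the values were seen, and in PBS it rests on Ccl6 levels of 0.371 to 1.52 FPKM. For Ccl2 the share outside Ccl2-201 was 19.8%, 15.4%, 22.5% and 9.18% with BAC and 9.70%, 4.46% and 0.210% in PBS 2 to 4, and the groups overlapped. For Ccl27a, a gene with 19 annotated transcripts, the share outside Ccl27a-204 was 59.4%, 79.2%, 82.8% and 35.9% in BAC 1 to 4. In PBS 1 to 4 it was 78.4%, 53.4%, 93.4% and 60.7%, and the groups overlapped. Ccl6 overlaps E230016K23Rik on the opposite strand, Ccl2 overlaps Gm17268 and Ccl27a overlaps Il11ra1. The strand setting of the counting is not given in the sources used here, so without it reads of these partners cannot be told apart.

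On chromosome 11 the members form blocks, with Ccl2, Ccl7 and Ccl11 in one and Ccl5, Ccl9, Ccl6, Ccl3 and Ccl4 in another that starts 1490 kb further on. Ccl12 and Ccl8, CC chemokines outside the 10 named, follow Ccl11. Of the 10 CC chemokine genes in the window from 500 kb before Ccl2 to 500 kb after Ccl4, 10 rose, with a median log2 change of 3.48, though all but Ccl6 passed the filter through BAC. Of the 26 other genes tested there, 15 rose, 5 fell and 6 did not pass. Their median of 0.33 was close to the 0.19 of all genes. Called higher were 45.1% of all genes and 94.6% of genes with a PBS mean under 0.5 FPKM. Among the other genes of the window, chosen here after their values were seen, Taf15, an RNA-binding protein gene next to Ccl5, changed by 0.08 (limma adjusted p = 0.445). Mmp28, a metalloproteinase gene, fell by 1.72 on the log2 scale (limma adjusted p = 4.32e-06). Wfdc17, beyond Ccl4, rose by 5.44 (limma adjusted p = 2.05e-08), from 0.180 to 50.4 FPKM. Beyond it, Wfdc18 rose by 3.95 and Wfdc21 by 2.27, and Slfn1, between the blocks, rose by 3.16. Large rises in the window were thus not limited to CC chemokines.

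**Figure D5:**
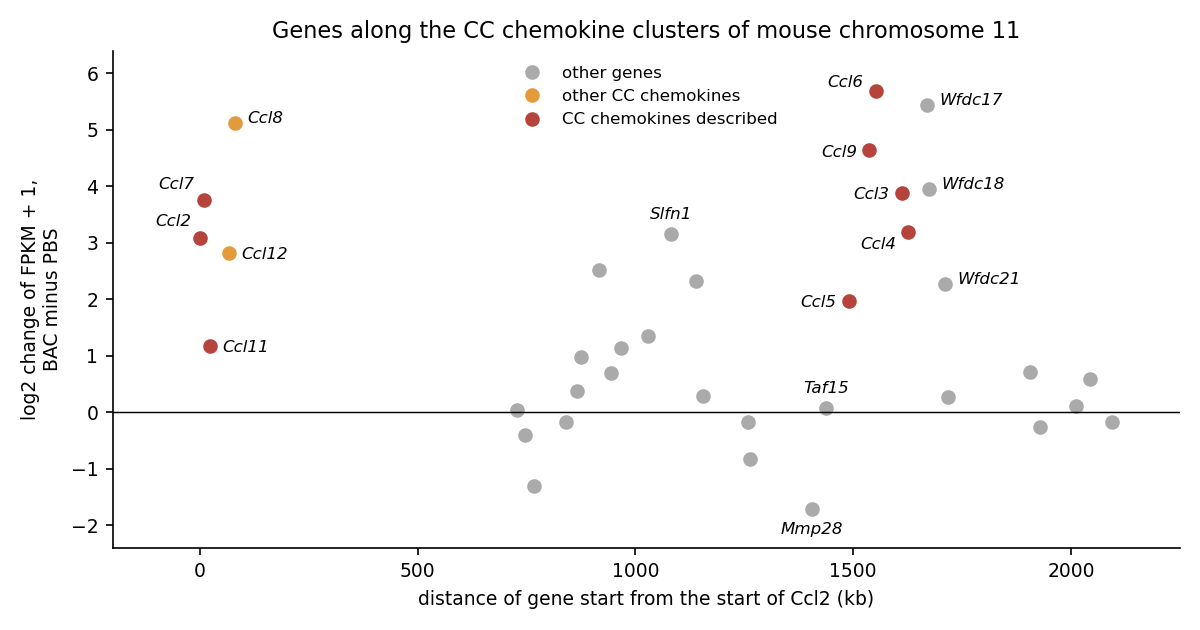
Log2 change with BAC, on the log2(FPKM + 1) scale, of every gene tested in the chromosome 11 window against the distance of its start from the start of Ccl2 in kb, with CC chemokines marked apart from other genes. The 10 CC chemokines lie above 0, and Taf15, Mmp28 and Wfdc17 show how neighbours differ.

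The receptors were read as levels in the same libraries. Of the 7 CC and atypical receptors reported here, 5 were called higher and 2 did not pass. All 5 had a PBS mean under 0.5 FPKM and passed the filter only through BAC, so, with 94.6% of such genes and 45.1% of all genes called higher, nothing is read from the count. Ccr1, the receptor shared by Ccl3, Ccl5, Ccl6, Ccl7 and Ccl9, was at 15.6, 23.1, 36.1 and 25.5 FPKM with BAC and at 0.131, 0.0711, 0.324 and 0.107 FPKM with PBS. It was 158-fold higher, with a log2 change of 4.44 (SE 0.21, limma adjusted p = 1.74e-07), and BAC 3 was its highest library. Ccr2, the receptor of Ccl2 and Ccl7, was at 4.50, 2.83, 5.28 and 3.44 FPKM with BAC and at 0.129, 0.130, 0.266 and 0.200 FPKM with PBS. It was 22.2-fold higher (log2 change 2.06, SE 0.15, limma adjusted p = 1.93e-06). In all 4 BAC libraries the level of Ccr1 was above that of Ccr2.

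Ccr7, which guides dendritic cells and T cells to lymph nodes, was at 2.21, 2.26, 1.81 and 1.77 FPKM with BAC and listed at 0 in all 4 PBS libraries (fitted log2 change 1.59, SE 0.08, limma adjusted p = 2.79e-07). Ccr9, a receptor of gut-homing lymphocytes, was at 0.576, 0.480, 0.659 and 0.534 FPKM with BAC and at 0.423, 0.606, 0.595 and 0.340 FPKM with PBS. Its groups overlapped and its log2 change was 0.07 (limma adjusted p = 0.499), which turned to -0.46 under quantile normalization (limma adjusted p = 0.00307). Among atypical receptors, Ackr1, the Duffy antigen found on venules, was at 3.61, 0.818, 5.92 and 5.16 FPKM with BAC and at 0.151, 0.123, 0 and 0.174 FPKM with PBS (log2 change 1.97, SE 0.37, limma adjusted p = 0.00104), with BAC 2 far below the other BAC libraries. Ackr3, which scavenges CXC ligands, was at 6.37, 6.30, 8.85 and 6.65 FPKM with BAC and at 6.73, 6.51, 6.78 and 6.74 FPKM with PBS (log2 change 0.05, limma adjusted p = 0.656). Ccrl2, a chemokine-receptor-like protein of myeloid cells, was 10.0-fold higher, with a log2 change of 1.75 (SE 0.22, limma adjusted p = 9.36e-05). Ccr3, Ccr6 and Ccr10, the receptors of Ccl11, Ccl20 and Ccl27a, were not analysed here.

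Among further CC chemokines, the table held 18 symbols of 24 listed for the family, in 21 gene entries. Of these entries 15 rose, 0 fell and 6 did not pass, with a median log2 change of 1.18, and 12 passed the filter only through BAC. As 45.1% of all genes and 94.6% of genes with a PBS mean under 0.5 FPKM were called higher, nothing is read from the count. Ccl8, a CCR2 ligand in the human, was at 28.5, 52.9, 63.4 and 19.9 FPKM with BAC, with a mean of 41.1 FPKM that was exceeded among the members by Ccl6, and at 0, 0, 0 and 0.446 FPKM with PBS (log2 change 5.12, limma adjusted p = 1.03e-06). Ccl12, a mouse CCR2 ligand, was at 6.84, 11.3, 9.50 and 4.71 FPKM with BAC and at 0, 0, 0 and 1.27 FPKM with PBS (log2 change 2.83, limma adjusted p = 3.99e-05). Ccl17, a CCR4 ligand, did not pass, at 0.300, 1.18, 0.992 and 2.94 FPKM with BAC and 0, 0, 0 and 2.24 FPKM with PBS (limma adjusted p = 0.192). Ccl8, Ccl12 and Ccl17 are named here after their values were seen. The 6 entries named Ccl21a, Ccl21b or Ccl21c are near-identical copies among which reads can be split, and BAC 2 was the lowest BAC library in each.

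Genes around the chemokine system were counted by lists, beside the 45.1% of all genes and the 94.6% of genes low in PBS that were called higher. Of the 8 chemokine-cleaving proteases in the table, 7 were higher with a median log2 change of 2.68, and 4 of the 8 passed the filter only through BAC. Among those higher were Mmp13 by 6.89, Mmp9 by 5.12 and Mmp14 by 1.62. Of the 11 tested genes of receptor signalling, 9 were higher with a median of 1.54, and 6 of the 11 passed only through BAC. Among those higher were the small GTPase gene Rac2 by 3.24 and the myeloid kinase gene Fgr by 2.62. Genes of heparan sulfate presentation were mixed, with 7 of 12 higher, 3 lower and a median of 0.90: Sdc3 rose by 2.22 and Ext1, which builds the sugar chain, by 1.82, while Sdc4 fell by 1.27. Their summed level went the other way from the median, at 348 to 382 FPKM with BAC and 599 to 666 FPKM with PBS. Sdc1, the most abundant of them with PBS and named after its values were seen, fell from a mean of 331 to 130 FPKM. Of 14 tested inducers and NF-kappa B genes, 7 rose, 3 fell and 4 did not pass, with a median of 0.50, a share of rises near that of all genes. Il1b rose by 5.95, Cebpd by 1.85 and Cebpb by 1.44. The 3 that fell, named after their values were seen, were Irf1 by 0.66 (limma adjusted p = 0.0428), Nfkbiz by 0.52 (0.00350) and Il1a by 0.52 (0.0480). These log2 changes stand beside the 0.19 median of all genes.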

How the data were processed

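RNA of mouse corneas was extracted with Trizol and sequenced from KAPA stranded libraries, per the labels' protocols. The submitters' processing notes name HISAT2 2.1.0, StringTie 1.3.3 and GRCm38 without saying which did what. FPKM was deposited per gene (13437 genes) and per transcript (25635 transcripts), per the file headers. Depth is unknown: between 15.7% and 26.0% of 300 low values per library lay within 0.05 of whole multiples of the best-fitting step, so whole reads were not recovered.

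The CC chemokines and the gene lists were chosen with earlier results of these data known. Samples were grouped by their titles. Genes with a mean of at least 0.5 FPKM over 8 samples were fitted on log2(FPKM + 1) with limma 3.58.1 (R 4.3.3), using group alone as covariate, a trended prior and two-sided tests; transcripts (23349 tested) likewise. The fit was tested on simulated data. Genes named were all members, the measured receptors and, of each other list, at most the 3 with the smallest adjusted p; any other gene is said to be chosen after its values. Some genes that this rule names are not reported here. The replicate numbers were not taken as pairs. Alternatives covered the pseudocount (0.1), the filter (none, or 2), scaling (equal totals, median of ratios, quantiles), the prior (untrended), array weights, a replicate block, and leaving out each sample. Promoters and annotation came from RefSeq and GENCODE, aligned with Biopython 1.88, and figures were drawn with matplotlib 3.10.9 in Python 3.11.15.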

Additional observations from a re-analysis of the deposited data

Results flagged for a closer look

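Ccl3 in PBS 1 was at 0.223 FPKM, the only value above 0 among the 4 PBS libraries. With the others all at 0, any value above 0 would have stood apart, so nothing is read from it. Ackr3 in BAC 3 was at 8.85 FPKM while BAC 1, 2 and 4 lay between 6.30 and 6.65 FPKM, a gap of 0.866 of the whole range, above the 95% critical value of Dixon's test for 4 samples. Among 36 groups examined, chance gives such a gap in about 1 in 20 groups.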

How the results depend on the processing

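The 8 rises were recomputed under 9 alternatives of scaling, filter and model and with each of the 8 samples left out in turn. All 8 stayed higher and past the threshold wherever they were tested, and 6 were tested under a filter at a mean of 2 FPKM, which leaves no value for Ccl5, Ccl11, Ccl27a, Ccr7, Ccr9 or Ackr1. Log2 changes were largest with a pseudocount of 0.1, at 6.78 for Ccl6, 6.76 for Ccl3, 6.58 for Ccl9, 6.38 for Ccl7, 6.35 for Ccl4, 5.09 for Ccl2, 4.07 for Ccl5 and 3.14 for Ccl11. Ccl6 still came first there, but by less than its SE of 0.33, so the size of its lead depends on the pseudocount. Quantile normalization made Ccl27a lower (-0.48), so that 1 member was called lower where 0 were as deposited, and made Ccr9 lower (-0.46). It also raised the summed PBS level from 2.59 to 4.67 FPKM and lowered the ratio of summed levels from 67.6 to 35.9. It moved the median change of all genes from 0.19 to -0.08 and the share of calls that were higher from 66.6% to 44.3%, and median-of-ratios scaling moved these to 0.01 and 51.4%. Deviations of samples with the same replicate number were weakly but positively correlated in all 4 pairs (0.0527, 0.109, 0.121 and 0.114). Every PBS sample matched its own number best, as did 3 of 4 BAC samples, while BAC 1 was closer to PBS 2 (0.104). The labels give no pairing, so the main fit used group alone. Whether samples of the same number share a batch was not tested. With the replicate block, 8 members were still higher, and calls over all genes went from 5845 higher and 2926 lower to 5693 and 2826. The tests with edgeR and DESeq2 need counts, so they were not run. Low levels limit the PBS values: an exact 0 may be a failed estimate, and no interval can be given without depth.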

Other observations

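CXC and CX3C chemokines, which act mainly on neutrophils and lymphocytes, also differed between the groups. Of the 12 tested, 11 rose and 1 did not pass, 3 of the 12 passing the filter only through BAC. Called higher were 45.1% of all genes and 94.6% of genes with a PBS mean under 0.5 FPKM. The median log2 change of the 12 was 3.51 beside 0.19 for all genes. Ppbp, a platelet and myeloid CXC chemokine, was at 1213 ± 153 FPKM with BAC and 0.780 ± 0.711 FPKM with PBS (SD, n = 4, log2 change 9.50, limma adjusted p = 1.39e-08), a level above that of Ccl6. Cxcl5, an epithelial neutrophil attractant, was at 116 ± 44.9 FPKM against 0.784 ± 0.317 FPKM, and Pf4 at 84.3 ± 26.5 FPKM against 0.676 ± 0.269 FPKM.

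Markers of other cells were read beside them. Their counts stand beside 45.1% of all genes called higher, 22.6% called lower, and 94.6% of genes low in PBS called higher. Of 7 corneal epithelium markers, 6 fell and 1 rose, with a median of -4.17. All 6 markers of vascular endothelium rose, 1 of them kept by the filter only through BAC, with summed levels of 101 to 132 FPKM with BAC and 3.85 to 10.6 FPKM with PBS. Of 6 fibroblast and keratocyte markers, 4 rose, 1 fell and 1 did not pass. Of 5 mast cell markers, 4 were higher, all of them kept by the filter only through BAC, and Kit, a growth factor receptor also made by other cells, fell by 2.85 on the log2 scale. The 3 tested dendritic cell markers were higher, and all 3 passed the filter only through BAC, so they had to differ. The 5 in the table had summed levels of 7.73 to 10.2 FPKM with BAC and 0.163 to 0.461 FPKM with PBS. Of 2 epidermal keratinocyte markers, 1 rose and 1 did not pass.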
